A study of Mus musculus with 20 samples.

Results

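Enhancer and promoter chromatin was described at 9 mouse genes of blood clotting and its control: F7, F10, Proz, F2, F5, F11, Proc, Serpinc1 and Plg. A region was taken as belonging to a gene when the middle of a consensus interval, a stretch in which the authors merged the peaks of several libraries, lay in the gene body or within 10 kb of it on mm10. This gave 48 of 65776 H3K27ac intervals, 87 of 103014 H3K4me1 intervals and 67 of 46568 H3K9ac intervals, from 9 of 21900 protein-coding genes in the RefSeq table. F7, F10 and Proz lie in a row on chromosome 8, so 8 of the H3K27ac and 7 of the H3K4me1 intervals belong to 2 of them and were counted once. The farthest interval kept lay 8829 bases outside its gene (H3K4me1, Plg), and the nearest one left out lay 10223 bases outside (H3K4me1, F10). The intervals were selected on their peak calls, and the genes were chosen by a reading of the folds and calls of these same libraries.

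The livers came from male C57BL/6 mice of 9 weeks, fasted for 24 hours, that is, every group was fasted and no fed liver enters. WT livers carried neither deletion. Cpt2 KO livers (Cpt2 L-/-) lacked, in the liver, the mitochondrial enzyme needed to burn long-chain fatty acids. Ppara KO livers (Ppara -/-) lacked the nuclear receptor that senses fatty acids, and double knockout (DKO) livers (Cpt2 L-/- ; Ppara -/-) lacked both, with the Ppara loss affecting the whole body per the labels of the DKO samples. The Cre driver of the liver knockout is not given in the sources used here. H3K27ac, found at active enhancers and promoters, and H3K4me1, found at enhancers, were each measured in 2 livers of each genotype. H3K9ac, a mark of active promoters, was measured in 1 WT and 1 Cpt2 KO liver. Peak names carry the same animal numbers for both marks, so the H3K27ac and H3K4me1 values of a replicate are from the same liver. The numbers are 9548, 9587, 9588 and 9589 for WT and Cpt2 KO livers and 6833, 6834, 6843 and 6848 for Ppara KO and DKO livers. They thus split by Ppara state, and whatever goes with that split cannot be told apart from Ppara loss. Nothing in the labels says whether the mice of a genotype were littermates.

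Clotting is a relay of proteases, nearly all secreted by hepatocytes. Factor VII starts it at a wound, factors XI and X carry it on, factor V helps factor X, and factor II (prothrombin) becomes thrombin, which makes fibrin. Protein C and antithrombin (Serpinc1) restrain it, protein Z (Proz) serves as a cofactor for the inhibition of activated factor X, and plasminogen (Plg) becomes the protease that dissolves fibrin. Factors VII, X and II, protein C and protein Z need vitamin K for a chemical change of their glutamates. Liver transcription factors of the HNF and C/EBP families are known to act on many of these genes.

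The promoters of the 3 clustered genes are shown first, with those of F11 and Serpinc1. The H3K27ac interval over the F11 start site was called lower for Cpt2 loss in limma, and the broad one of Serpinc1 passed no test. Each line is 250 bases before to 50 bases after the RefSeq transcription start on GRCm38.p6, the assembly that mm10 names, read 5′ to 3′ along the gene. The windows are chr8:13025784-13026083 (plus strand, F7), chr8:13037058-13037357 (plus, F10), chr8:13060658-13060957 (plus, Proz), chr8:45261982-45262281 (minus, F11) and chr1:160978333-160978632 (plus, Serpinc1). Capitals mark matches, on either strand, to 5 motifs searched: ACTTTG (HNF4 type), GTTAAT (HNF1 type), TTGCNNAA (C/EBP type), TATAAA and GGGCGG.
F7: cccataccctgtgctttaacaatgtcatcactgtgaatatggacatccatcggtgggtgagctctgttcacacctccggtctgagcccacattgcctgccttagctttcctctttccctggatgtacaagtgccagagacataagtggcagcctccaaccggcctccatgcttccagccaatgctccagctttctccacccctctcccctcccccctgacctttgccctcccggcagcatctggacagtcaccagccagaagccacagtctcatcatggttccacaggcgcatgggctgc
F10: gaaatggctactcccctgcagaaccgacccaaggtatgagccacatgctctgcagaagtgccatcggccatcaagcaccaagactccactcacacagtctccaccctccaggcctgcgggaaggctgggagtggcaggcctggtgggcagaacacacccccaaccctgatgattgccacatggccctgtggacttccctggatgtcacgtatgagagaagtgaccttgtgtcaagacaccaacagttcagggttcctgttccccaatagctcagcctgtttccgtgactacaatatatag
Proz: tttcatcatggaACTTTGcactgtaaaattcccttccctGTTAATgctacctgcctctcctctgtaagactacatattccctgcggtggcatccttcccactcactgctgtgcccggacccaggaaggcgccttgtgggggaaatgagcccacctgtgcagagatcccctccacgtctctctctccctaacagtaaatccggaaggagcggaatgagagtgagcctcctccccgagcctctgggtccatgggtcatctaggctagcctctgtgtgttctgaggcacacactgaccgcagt
F11: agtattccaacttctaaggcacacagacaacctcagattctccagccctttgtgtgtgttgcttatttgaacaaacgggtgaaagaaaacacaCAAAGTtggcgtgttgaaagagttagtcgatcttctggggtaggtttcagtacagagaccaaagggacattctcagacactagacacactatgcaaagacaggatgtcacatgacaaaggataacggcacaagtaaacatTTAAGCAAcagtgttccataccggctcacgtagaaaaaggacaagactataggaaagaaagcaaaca
Serpinc1: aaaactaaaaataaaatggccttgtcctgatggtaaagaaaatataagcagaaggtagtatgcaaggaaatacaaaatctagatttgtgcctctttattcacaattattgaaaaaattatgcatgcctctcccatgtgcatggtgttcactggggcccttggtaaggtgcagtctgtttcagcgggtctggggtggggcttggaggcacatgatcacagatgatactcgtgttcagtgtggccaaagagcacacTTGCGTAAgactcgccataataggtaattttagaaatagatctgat

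The F7 and F10 windows held none of the 5 motifs, and the Proz window held an ACTTTG from base -238 to -233 and a GTTAAT from -211 to -206, counted from the start site. The F11 window held CAAAGT, which is ACTTTG on the other strand, from -157 to -152 and TTAAGCAA from -17 to -10. The Serpinc1 window held TTGCGTAA from base 4 to 11. Of the 2 other windows matched in the table, that of F2 (49% GC) held ATTAAC and that of F5 (57.7% GC) held GGGCGG. Proc and Plg had no entry. None of the matches overlapped another. In the 21263 promoter windows of the table, ACTTTG was found in 13.4%, GTTAAT in 6.25%, TTGCNNAA in 10.2%, TATAAA in 12.6% and GGGCGG in 46.2%, so matches of this kind are common, and none was looked for as a binding site.

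H3K27ac libraries held 44454 to 48929 peaks and H3K4me1 libraries 61189 to 72151. The depth of the libraries in reads is unknown. The value of an interval in a library is the highest fold over input, as the authors' caller gave it, of the peaks that overlap it. For tests, log2 folds were centred on each library's median over the intervals called in all 8 libraries of the mark, 18281 for H3K27ac and 19526 for H3K4me1, and these were fitted together with limma. Among the clotting genes 18 of 48 H3K27ac and 25 of 87 H3K4me1 intervals were called in all 8 libraries. The other 30 and 62 were not tested, and which intervals passed this filter depends on the folds themselves. All 8 hepatocyte genes checked as markers had an H3K27ac peak in every library, as did all 5 endothelial genes and 3 of 5 Kupffer cell genes (Marco had none). 3 of 4 cholangiocyte, 3 of 4 lymphocyte and 3 of 4 platelet genes had no peak in any library, and the neuronal gene Rbfox3 had one in all 8. The remaining gene of each of those 3 classes, Sox9, Ptprc and Itga2b, had a peak in 6 libraries. Of the stellate cell genes, Pdgfrb had a peak in 8 libraries, Des in 7, and Lrat and Reln in 4 each. In pieces of whole liver, fewer cells with a mark and less mark per cell cannot be told apart.

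Without Cpt2, acetylation was lower at 5 of the 18 clotting gene intervals and higher at none, where 7.38% of all 18281 intervals were lower and 4.9% higher. The 5 lay in Proz, at both ends of F11, before F5 and in Proc. In DKO livers 5 intervals were lower than in WT (11.5% of all intervals): 3 in the F7, F10 and Proz cluster, the F2 start site and Proc. Over the 18 intervals the median log2 difference was -0.46 for Cpt2-null (Cpt2 KO and DKO) against Cpt2-intact livers, with 17 of 18 below 0, and -0.60 for DKO against WT, also with 17 of 18 below 0. For Ppara-null (Ppara KO and DKO) against Ppara-intact livers the median was -0.16, with 13 of 18 below 0. All these counts are of centred folds. Without centring the median of all intervals was higher by 0.25 for Cpt2 loss and by 0.26 for DKO against WT. Some differences for Cpt2 loss, such as -0.23 between F11 and Klkb1 and -0.05 beyond F11, are smaller than that shift. The counts below 0 thus depend on centring.

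A call here means a limma adjusted p (Benjamini-Hochberg) under 0.05. For all intervals the median differences were -0.01 for Cpt2 loss, with 51.4% below 0, and -0.04 for DKO against WT. Cpt2 KO against WT gave 3 lower intervals (background 7.69%) and none higher. Ppara-null livers had 1 lower interval, the Proc one (background 4.15%), and Ppara KO against WT gave 1 higher interval, beyond F11 (background 2.83%). The limma test of the interaction of both losses called none of the 18 and 1 interval in all (0.00547%). An unadjusted p under 0.05 was reached there by 2 of the 18 and by 2771 of all 18281. Since the list was drawn up with these folds known, its calls are a description and no independent evidence for it.

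A technical measure moves with Cpt2. The smallest H3K27ac peak width, which the caller ties to fragment length, was 217 to 223 bases in the 4 Cpt2-null libraries and 198 to 210 in the 4 Cpt2-intact ones. With this width as a covariate in the limma fit, none of the calls at the 18 intervals stayed past the threshold, and none of all 18281 intervals was called for Cpt2 loss. In that limma fit Cpt2 loss was -2.15 at the called Proz interval (adjusted p 0.57) and -0.06 before F5 (0.99), and Ppara loss was -0.63 at Proc (0.060). The effects of width and of Cpt2 cannot be told apart here. Without centring, the median of all intervals differs by 0.25 on the log2 scale for Cpt2 loss and by 0.26 for DKO against WT. All differences above and below are relative to that shift. H3K4me1 folds gave no call among the 25 clotting gene intervals in any of the 6 limma contrasts, where an unadjusted p under 0.05 was reached by 1 interval for Ppara loss, 4 for Cpt2 loss and 5 for DKO against WT. Over all 19526 intervals the unadjusted p was under 0.05 at 2721, 1916 and 3793 in the same 3 contrasts. Calls by the adjusted p made up 0.128% of all intervals for Ppara loss, 0.133% for DKO against WT and 0% in the other 4 contrasts.

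**Figure D1:**
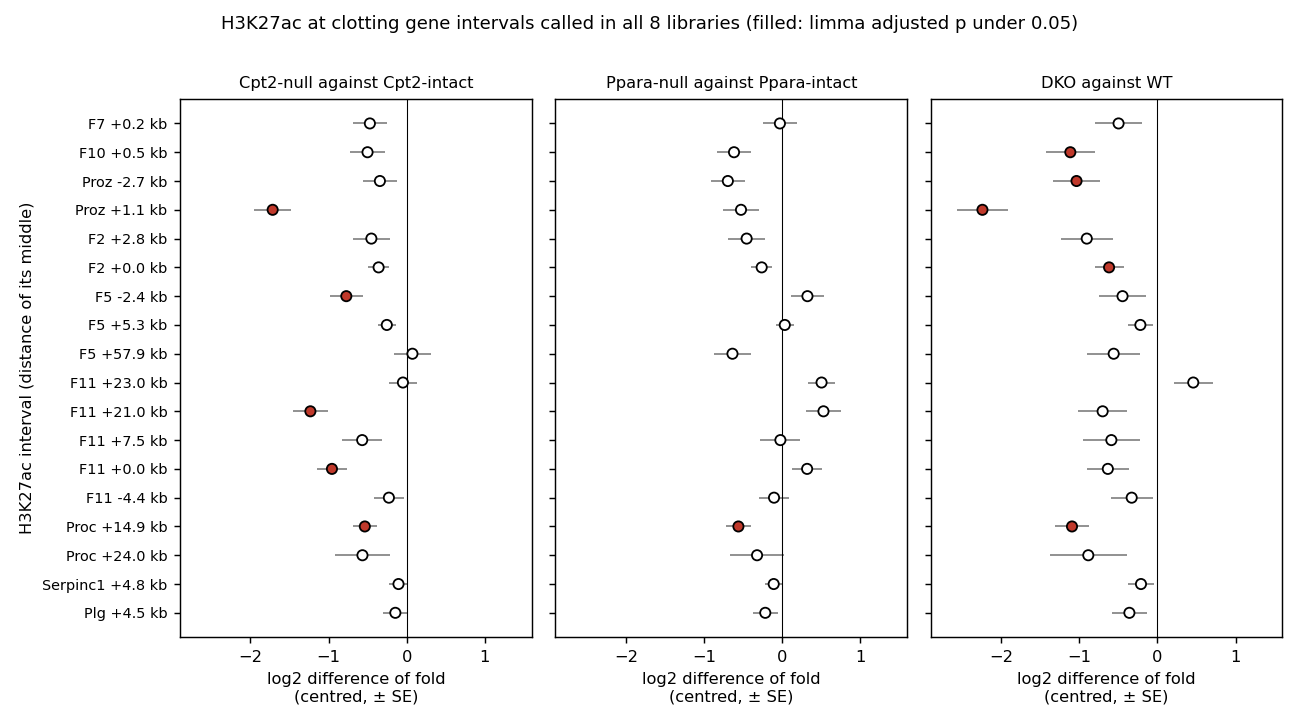
Log2 difference of centred H3K27ac fold (points, with the standard error from limma) at the 18 clotting gene intervals called in all 8 libraries, for 3 comparisons. Intervals are named by the distance of their middle from the start site of the gene named, or from the lower end of the gene body for Proc and Plg. Filled points have a limma adjusted p under 0.05. After centring, 17 of 18 points lie below 0 for Cpt2 loss and for DKO against WT.

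The cluster of F7 (chr8:13025506-13035809), F10 (chr8:13037308-13056676) and Proz (chr8:13060584-13076026), all on the plus strand, had the longest H3K27ac coverage of the loci in WT livers. H3K27ac peaks in and within 10 kb of the cluster spanned 18.7 and 19.6 kb in the WT livers. They spanned 7.30 and 9.46 kb in the Cpt2 KO, 10.9 and 11.5 kb in the Ppara KO and 6.55 and 7.27 kb in the DKO livers. Both WT livers lay above all 6 others, and both DKO livers lay below the rest. H3K4me1 peaks spanned 14.2 and 13.4 kb for WT, 6.21 and 9.76 kb for Cpt2 KO, 11.4 and 10.8 kb for Ppara KO and 8.05 and 7.62 kb for DKO, again with both WT livers on top. H3K9ac spanned 15.3 kb in the WT and 4.49 kb in the Cpt2 KO liver. As the map of the cluster shows, the H3K27ac peaks of the knockouts sat mostly at the same places as the WT ones, and those near the far end of Proz were mostly missing. Over the F10 start base the H3K27ac peak was 5424 and 6281 bases wide in WT and 1118 to 3341 in the 6 others. The H3K4me1 peak there had the other order, 815 and 862 bases in WT and 1073 to 2296 in the 6 others.

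**Figure D2:**
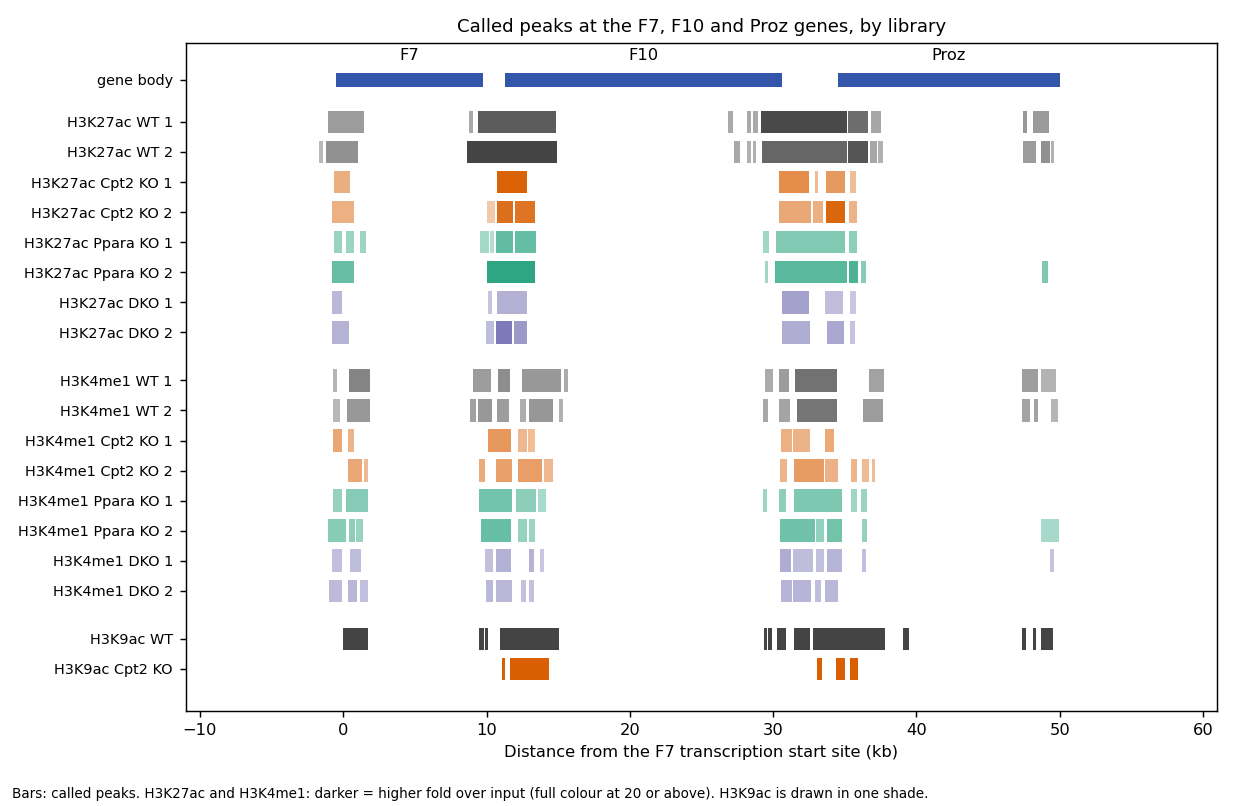
Called peaks (bars) at F7, F10 and Proz in each library against distance from the F7 start site in kb; darker bars have a higher fold over input for H3K27ac and H3K4me1, and H3K9ac has a single shade. The 3 start site regions carry H3K27ac peaks in every genotype, and in that mark the WT bars around F10 and before Proz are the widest.

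Coagulation factor VII, encoded by F7, had the weakest start site of the 3. Its RefSeq start site, base 13026034, lies inside the gene body of the gene table, and the H3K27ac interval over it (chr8:13024860-13027642) had folds of 7.33 and 8.90 for WT, 6.80 and 6.40 for Cpt2 KO, 5.22 and 11.1 for Ppara KO and 6.50 and 7.60 for DKO. The genotypes overlapped, and limma gave -0.47 ± 0.22 (SE) for Cpt2 loss with an adjusted p of 0.16. A peak lay over the start base itself in 6 of 8 libraries, all but Ppara KO replicate 1 and DKO replicate 1. H3K4me1 covered that base in 1 library, Ppara KO replicate 2, and the next interval inside the gene (chr8:13026261-13027909) had folds of 10.8 and 8.0 in WT and 5.6 to 7.81 in the 6 others. WT was the higher there, but limma gave -0.59 ± 0.29 for DKO against WT with an adjusted p of 0.27.

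The strongest acetylation of F7 was shared with F10, the gene of factor X, and lay over the F10 start site (chr8:13034645-13040925). Folds were 16.6 and 26.6 for WT, 19.5 and 17.4 for Cpt2 KO, 11.8 and 17.8 for Ppara KO and 7.74 and 18.4 for DKO. The DKO livers were far apart, and their range overlapped that of WT. DKO against WT was -1.12 ± 0.31 (limma adjusted p 0.024). That call rests on single libraries: without WT replicate 2 or without DKO replicate 1 the adjusted p no longer passed, nor did it without centring, and the difference without DKO replicate 1 was -0.59. The F10 start site was the one member start site with a peak of both marks in all 8 libraries; its H3K4me1 interval (chr8:13034879-13037831) had folds from 6.57 in DKO replicate 2 to 11 in Ppara KO replicate 2, with WT at 9.44 and 8.0.

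Between F10 and Proz, an interval that runs over the Proz start site (chr8:13055188-13061205) had H3K27ac folds of 19.3 and 15.1 for WT, 12.3 and 18.8 for Cpt2 KO, 8.08 and 12.6 for Ppara KO and 10.8 and 9.70 for DKO. All 4 Ppara-null livers lay below both WT livers, and Cpt2 KO overlapped WT. DKO against WT was -1.04 ± 0.30 (limma adjusted p 0.030), a call lost without WT replicate 1, without either DKO liver and without centring, and Ppara loss was -0.69 ± 0.22 (adjusted p 0.068). The peak over the start base was 5999 and 5955 bases wide in WT, 4796 and 4980 in Ppara KO, and 1332 and 1344 in Cpt2 KO livers. It was 1211 bases wide in DKO replicate 2, and DKO replicate 1 had none over that base. The widths in the Cpt2-null livers lay below all others, while the folds of Cpt2 KO and WT overlapped. In the same stretch H3K4me1 (chr8:13056425-13060854) had 13.4 and 13 in WT and 7.25 to 10.2 in the 6 others.

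The largest difference of any of the 18 intervals was just inside Proz (chr8:13061282-13062669). Its H3K27ac folds were 14.1 and 17.6 for WT, 4.18 and 5.80 for Cpt2 KO, 6.50 and 14.0 for Ppara KO and 3.78 and 4.45 for DKO. Every Cpt2-null liver lay below every Cpt2-intact one. Cpt2 loss was -1.71 ± 0.23 (limma adjusted p 0.0038), Cpt2 KO against WT -1.90 ± 0.33 (0.0060) and DKO against WT -2.24 ± 0.33 (0.0016). The Cpt2 KO comparison lost its call without Cpt2 KO replicate 1. Ppara loss gave -0.53 ± 0.23 with an adjusted p of 0.19, and the 2 Ppara KO livers stood far apart. Further along Proz (chr8:13073470-13075317) H3K27ac was called in both WT livers (7.88 and 9.00), in Ppara KO replicate 2 (8.43) and in no other liver, close to the neighbouring gene Pcid2.

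3 small H3K27ac intervals around Proz were called in both WT livers and in none of the other 6. 2 lay near the end of F10, at chr8:13054191-13054488 with folds of 5.46 and 4.43 and at chr8:13054601-13054975 with 5.43 and 4.69, and the third lay inside Proz (chr8:13062772-13063669) with 6.02 and 5.91. In the H3K9ac pair, 13 intervals fell in or near the cluster and all were called in the WT library. The Cpt2 KO library had 2 of the 9 near F10, over the F10 start site and over the start of Proz, and none at the F7 start site.

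**Figure D3:**
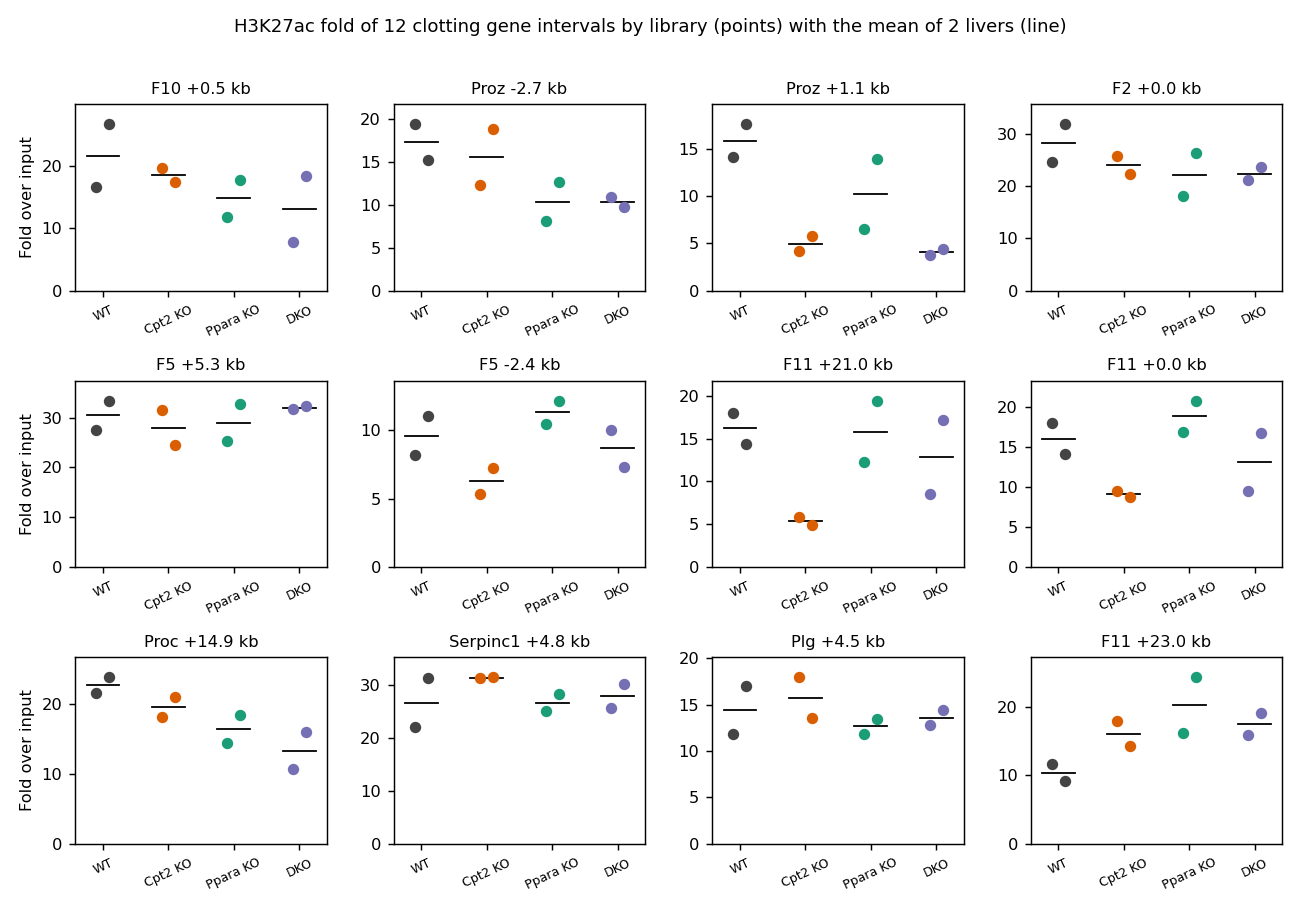
H3K27ac fold over input of 12 clotting gene intervals in each of 8 libraries (points), with the mean of 2 livers per genotype (lines); panels are named by the distance of the interval's middle from the start site, or from the lower end of the gene body for Proc and Plg. At Proz +1.1 kb and F11 +21.0 kb the Cpt2 KO points lie below all WT and Ppara KO points, while F5 +5.3 kb, Serpinc1 and Plg overlap across genotypes.

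Prothrombin is encoded by F2 (chr2:91612397-91636457, minus strand). Its strongest H3K27ac interval lay over the start site (chr2:91634927-91638084), with folds of 24.6 and 31.8 for WT, 25.8 and 22.4 for Cpt2 KO, 18.1 and 26.3 for Ppara KO and 21.1 and 23.7 for DKO. Both DKO values lay below both WT values, and the other genotypes overlapped WT. DKO against WT was -0.62 ± 0.19 (limma adjusted p 0.033), a call lost without WT replicate 2, without either DKO liver, without centring and with quantile normalization. Inside the gene, at chr2:91629907-91630965, H3K27ac was called in both WT livers (5.86 and 7.54) and in no other.

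H3K4me1 in F2 showed a larger contrast of calls. 3 neighbouring intervals inside the gene were called in both WT livers and in none of the other 6. Their folds in the WT livers were 6.69 and 3.86 (chr2:91627284-91627959), 9.24 and 6.00 (chr2:91628248-91629435) and 8.0 and 5.25 (chr2:91629725-91631041). The next interval towards the start site (chr2:91631269-91634804) was called in all 8 libraries, at 11.9 and 11.7 in WT and 6.38 to 7.29 in the 6 others. The WT livers stood apart from the rest with no overlap, yet in limma the adjusted p was 0.57 for Cpt2 KO, 0.50 for Ppara KO and 0.14 for DKO against WT, with differences of -0.79, -0.78 and -0.78 (SE 0.26 each). H3K9ac had 8 intervals at F2 in the WT liver, of which 2 were called in the Cpt2 KO liver, the ones nearest the start site.

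Protein C, encoded by Proc (chr18:32123126-32139570), is the vitamin K-dependent protease that shuts clotting down. Its strongest H3K27ac interval (chr18:32136134-32139952) had folds of 21.6 and 23.8 for WT, 18.1 and 21.1 for Cpt2 KO, 14.4 and 18.5 for Ppara KO and 10.7 and 15.9 for DKO. Both WT livers were above all others, and DKO had the lowest mean. It was the one clotting gene interval called for both losses: -0.56 ± 0.16 for Ppara (limma adjusted p 0.045), -0.54 ± 0.16 for Cpt2 (0.040) and -1.09 ± 0.22 for DKO against WT (0.0059), with an interaction of -0.19 ± 0.31 (0.81). The calls for each single loss were fragile, the Ppara one lost without any of the 8 libraries and the Cpt2 one without any but DKO replicate 2, and both were lost without centring and with quantile normalization. The DKO call stayed in every such fit.

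The smaller intervals around Proc varied. H3K27ac at chr18:32135326-32135973 was called in both WT livers (3.88 and 4.62) and in no other, and at chr18:32144972-32146236 in all but the DKO livers, with folds from 4.0 to 7.43. At chr18:32146323-32147939 it was called in all 8, with 7.90 and 7.73 for WT, 6.2 and 7.60 for Cpt2 KO, 3.70 and 12.9 for Ppara KO and 3.0 and 9.0 for DKO; the genotypes overlapped and no limma test passed. None of the 4 H3K4me1 intervals called throughout passed the limma test, and that at chr18:32148088-32148563 was higher in both DKO livers (8.18 and 8.43) than in both WT livers (6.46 and 5.42), at 0.49 on the log2 scale with a limma adjusted p of 0.35. H3K9ac was the least different here of all the loci: 3 of 4 WT intervals were also called in the Cpt2 KO liver.

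Factor V, the cofactor of factor X, is encoded by F5 (chr1:164151835-164220277, plus strand). It had a broad H3K27ac interval of 13491 bases over its start site (chr1:164150383-164163873) with folds of 27.5 and 33.3 for WT, 31.4 and 24.4 for Cpt2 KO, 25.3 and 32.7 for Ppara KO and 31.6 and 32.4 for DKO. All genotypes overlapped, and limma gave -0.25 ± 0.12 for Cpt2 loss (adjusted p 0.16) and 0.04 ± 0.12 for Ppara loss (0.90). A smaller interval before it, inside the neighbouring gene Selp (chr1:164148675-164150205), had 8.2 and 11 for WT, 5.33 and 7.20 for Cpt2 KO, 10.4 and 12.1 for Ppara KO and 9.99 and 7.33 for DKO. Both Cpt2 KO livers lay below both WT livers, while the DKO livers overlapped WT. Cpt2 loss was -0.77 ± 0.21 (limma adjusted p 0.031). That call was lost without WT replicate 2, Cpt2 KO replicate 1, either Ppara KO liver or DKO replicate 2, and without centring.

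The far part of F5 ran the other way in the Cpt2 KO livers. An interval at chr1:164207393-164212051 had H3K27ac folds of 11.8 and 11.4 in Cpt2 KO against 6.40 and 8.92 in WT, 6.73 and 5.40 in Ppara KO livers and 8.67 and 4.57 in DKO livers. Cpt2 KO was the highest, but against WT limma gave 0.40 ± 0.34 with an adjusted p of 0.47. A small interval at chr1:164214875-164215158 was called in both Cpt2 KO livers (5.39 and 4.44) and in none of the other 6, as were 1.83% of all intervals. H3K9ac covered 5.69 kb at F5 in the WT and 1.49 kb in the Cpt2 KO liver, where 1 of 8 intervals, the one over the start site, was called.

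Factor XI belongs to the intrinsic branch of clotting, and its gene F11 (chr8:45240659-45262055, minus strand) lies beside Klkb1, the gene of plasma prekallikrein. Of its 5 tested H3K27ac intervals, those at both ends of the gene were lower in Cpt2 KO livers and overlapped WT in Ppara KO livers. The one in the middle of the gene (chr8:45251678-45257404) had folds of 18.8 and 10.3 for WT and 13.9 and 12.3 for Cpt2 KO. It had 18.6 and 14.1 for Ppara KO and 7.67 and 16.9 for DKO, and passed no limma test. At the far end (chr8:45239710-45242293) folds were 18.0 and 14.4 for WT, 5.88 and 4.86 for Cpt2 KO, 12.2 and 19.4 for Ppara KO and 8.57 and 17.2 for DKO. Both Cpt2 KO livers lay below the other 6. Cpt2 KO against WT was -1.81 ± 0.31 (limma adjusted p 0.0059) and Cpt2 loss -1.23 ± 0.22 (0.0070). The DKO livers split, and the interaction was 1.16 ± 0.44 (adjusted p 0.24).

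In the interval over the F11 start site (chr8:45260528-45263537) folds were 17.9 and 14.2 for WT and 9.44 and 8.76 for Cpt2 KO. They were 16.9 and 20.8 for Ppara KO and 9.48 and 16.8 for DKO. Again both Cpt2 KO livers were below the other 6, DKO replicate 1 by a small margin. Cpt2 loss was -0.96 ± 0.19 (limma adjusted p 0.0097), and Cpt2 KO against WT -1.03 ± 0.27 (0.025), the latter lost without WT replicate 1 or either Cpt2 KO liver and without centring. These folds are of the highest peak anywhere in the interval. The peak over the start base itself had folds of 17.9 and 14.2 for WT and 8.55 and 8.76 for Cpt2 KO. It had 9.43 and 20.8 for Ppara KO and 9.17 and 16.8 for DKO. There Ppara KO replicate 1 lay between the DKO livers, so Cpt2-null and Cpt2-intact livers overlapped, which was not tested. That peak was 665 and 493 bases wide in Cpt2 KO and 631 and 1635 in DKO livers. It was 3010 and 1732 bases wide in WT and 1913 and 2949 in Ppara KO livers. This interval is also the strongest of Klkb1, so it cannot be given to either gene.

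Just beyond the far end of F11 (chr8:45238439-45239598), in the strongest H3K27ac interval of the gene by mean fold, the order was different. H3K27ac folds were 11.6 and 9.12 for WT, 17.9 and 14.2 for Cpt2 KO, 16.2 and 24.3 for Ppara KO and 15.9 and 19.0 for DKO, so both WT livers were the lowest. Ppara KO against WT was 0.96 ± 0.25 (limma adjusted p 0.037), a call lost without WT replicate 2, either Cpt2 KO or either Ppara KO liver, and without centring. In Cpt2 KO livers the mean fold was thus below WT at the end of the gene and above WT in the next interval outside it, where the limma difference was 0.40 ± 0.25 (adjusted p 0.29). In H3K4me1 no F11 interval passed the test. The H3K9ac pair was the most different of all at F11: 9 intervals covering 3.18 kb in the WT liver and none in the Cpt2 KO liver.

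Antithrombin, the main inhibitor of thrombin and activated factor X, is encoded by Serpinc1 (chr1:160978583-161002543, plus strand). Its single H3K27ac interval, 12934 bases long (chr1:160976901-160989834), had folds of 22.0 and 31.2 for WT, 31.2 and 31.4 for Cpt2 KO, 25 and 28.2 for Ppara KO and 25.7 and 30.1 for DKO. Genotypes overlapped, and the limma difference was -0.10 ± 0.12 for Cpt2 loss (adjusted p 0.59) and -0.11 ± 0.12 for Ppara loss (0.63). Those values are the highest peak anywhere in the interval. The peak over the start base itself had folds of 22.0 and 31.2 for WT, 11 and 11 for Cpt2 KO, 25 and 28.2 for Ppara KO and 11.9 and 30.1 for DKO. It was 12759 and 11846 bases wide in WT and 12422 and 12394 in Ppara KO livers, against 4097 and 3908 in Cpt2 KO and 3945 and 4408 in DKO livers. The widths in the 4 Cpt2-null livers thus lay below the other 4, and the folds over the start base were lowest in both Cpt2 KO livers and DKO replicate 1; neither measure was tested. The widest H3K4me1 interval (chr1:160982000-160987344) had 14.0 and 13.9 in WT and 8.30 to 12.9 in the others, with an adjusted p of 0.33 in limma for DKO against WT. H3K9ac was called at 14 intervals in the WT and at 6 of them in the Cpt2 KO liver, spanning 10.9 and 6.96 kb.

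Plasminogen is encoded by Plg (chr17:12378609-12419384). Its strongest H3K27ac interval spans 11328 bases at the lower end of the gene body (chr17:12377446-12388773), with folds of 11.8 and 17.0 for WT, 18.0 and 13.6 for Cpt2 KO, 11.8 and 13.5 for Ppara KO and 12.8 and 14.4 for DKO. The peak height did not separate the genotypes (limma adjusted p 0.58 for Cpt2 loss and 0.46 for Ppara loss). H3K27ac peaks in and around Plg spanned 13.8 and 12.6 kb for WT, 10.4 and 8.96 kb for Cpt2 KO, 10.5 and 10.4 kb for Ppara KO and 5.85 and 8.0 kb for DKO. The DKO livers were the lowest and the WT livers the highest, and the single knockouts overlapped each other.

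At the other end of Plg a row of H3K4me1 intervals was called in the WT livers. 6 of them, between chr17:12406339-12406978 and chr17:12413559-12414601, were called in both WT livers and in none of the other 6, with folds from 3.57 to 6.80. A wider one among them (chr17:12411200-12413001) was called in 7 of 8 libraries, at 9.35 and 7.33 in WT and 4.07 to 6.29 in the knockouts. As the map of Plg shows, H3K27ac was called along this stretch in 1 DKO library and no other. 2 H3K27ac intervals next to the broad one (chr17:12388780-12389222 and chr17:12389302-12390251) were likewise called in both WT livers and no other, with folds of 6.45 and 2.90 and of 7.01 and 5.20. H3K9ac spanned 10.6 kb in the WT and 2.73 kb in the Cpt2 KO liver at Plg.

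**Figure D4:**
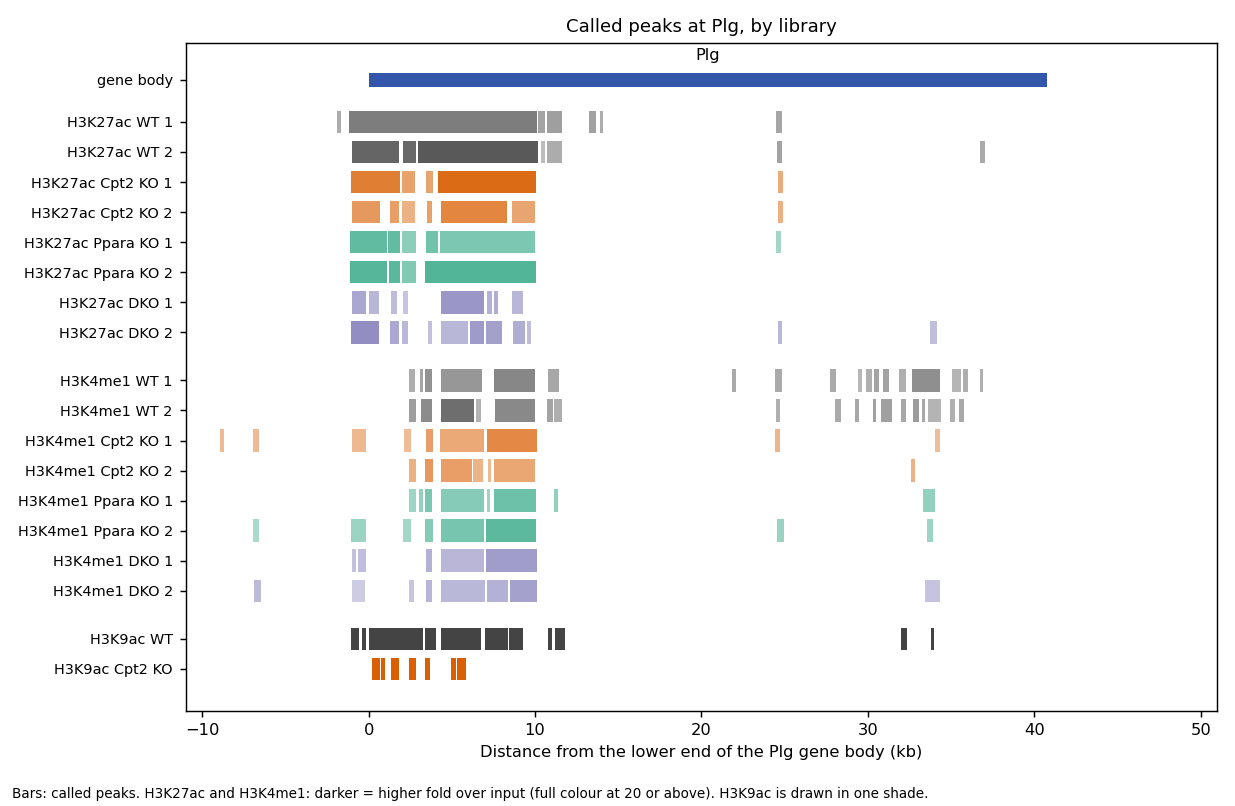
Called peaks (bars) at Plg in each library against distance from the lower end of the gene body in kb, shaded by fold as in the map of the cluster. The H3K4me1 peaks on the right, between about 28 and 36 kb, are a row of bars in both WT livers and at most 1 bar in each other liver.

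Over all 9 genes, 7 of the 48 H3K27ac intervals (14.6%) were called in both WT livers and in none of the other 6, where the share over all intervals was 3.29%. For H3K4me1 the count was 11 of 87 (12.6%), against 1.85% of all intervals: 6 in Plg, 3 in F2, 1 in Proz and 1 beyond F5. This pattern was chosen after the calls were seen. WT calls missing from both Cpt2 KO livers numbered 8 in H3K27ac (background 6.64%) and 18 in H3K4me1 (3.64%). WT calls missing from both Ppara KO livers numbered 9 (5.41%) and 12 (4.89%), and those missing from both DKO livers 11 (8%) and 18 (10.6%). In the other direction each knockout had at most 1 interval per mark called in both of its livers and in neither WT liver, where all intervals gave 9.72% for Cpt2 KO, 5.01% for Ppara KO and 12.6% for DKO in H3K27ac, and 2.87%, 3.5% and 10.7% in H3K4me1. Counted in any direction between any 2 genotypes, 14 of 48 H3K27ac intervals (29.2%) and 25 of 87 H3K4me1 intervals (28.7%) differed, close to the 29.6% and 26.2% of all intervals.

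Summed over the 385.604 kb in and around the genes, H3K27ac peaks covered 93.5 and 87.0 kb in WT, 73.1 and 78.4 kb in Ppara KO, 59.2 and 61.5 kb in Cpt2 KO and 50.9 and 54.4 kb in DKO livers. The 4 genotypes did not overlap. The H3K27ac libraries as a whole covered 47.8 and 47.1 Mb in WT and 42.0 to 47.4 Mb in the others, and the part of that difference in the result was not tested. Per Mb covered in its library, the clotting genes held 1.96 and 1.85 kb in WT, 1.54 and 1.75 in Ppara KO, 1.41 and 1.38 in Cpt2 KO, and 1.21 and 1.21 in DKO livers. H3K4me1 covered 70.7 and 61.8 kb in WT, 59.2 and 61.2 kb in Ppara KO, 51.5 and 48.8 kb in Cpt2 KO, and 48.7 and 52.7 kb in DKO livers. Per Mb covered in its library, H3K4me1 at these genes came to 1.35 and 1.16 kb for WT, 1.11 and 1.43 for Ppara KO, 1.24 and 0.912 for Cpt2 KO, and 1.26 and 1.15 for DKO, so on that scale WT was not the highest and the genotypes overlapped. As many bases in all as in the WT libraries (52.5 and 53.2 Mb) were covered in the H3K4me1 libraries of replicate 2 of Cpt2 KO (53.5 Mb) and replicate 1 of Ppara KO (53.3 Mb). Replicate 1 of Cpt2 KO covered 41.4 Mb, replicate 2 of Ppara KO 42.7 Mb and the DKO libraries 38.8 and 46.0 Mb. These are also the H3K4me1 libraries with the larger smallest peak widths.

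By locus, both WT livers were above all 6 others in H3K27ac at 5 of 7 loci (the cluster counted as 1), all but F5 and F11, where 17.8% of all genes gave that order. In H3K4me1 the same held at 4 of 7, the cluster, F2, Proc and Plg, against 8.74% of all genes. At Serpinc1 the H3K27ac margin was small, with 12.76 and 12.55 kb in WT and 12.42 and 12.39 kb in Ppara KO livers. These counts have no test, because coverage follows from the same calls that chose the intervals.

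**Figure D5:**
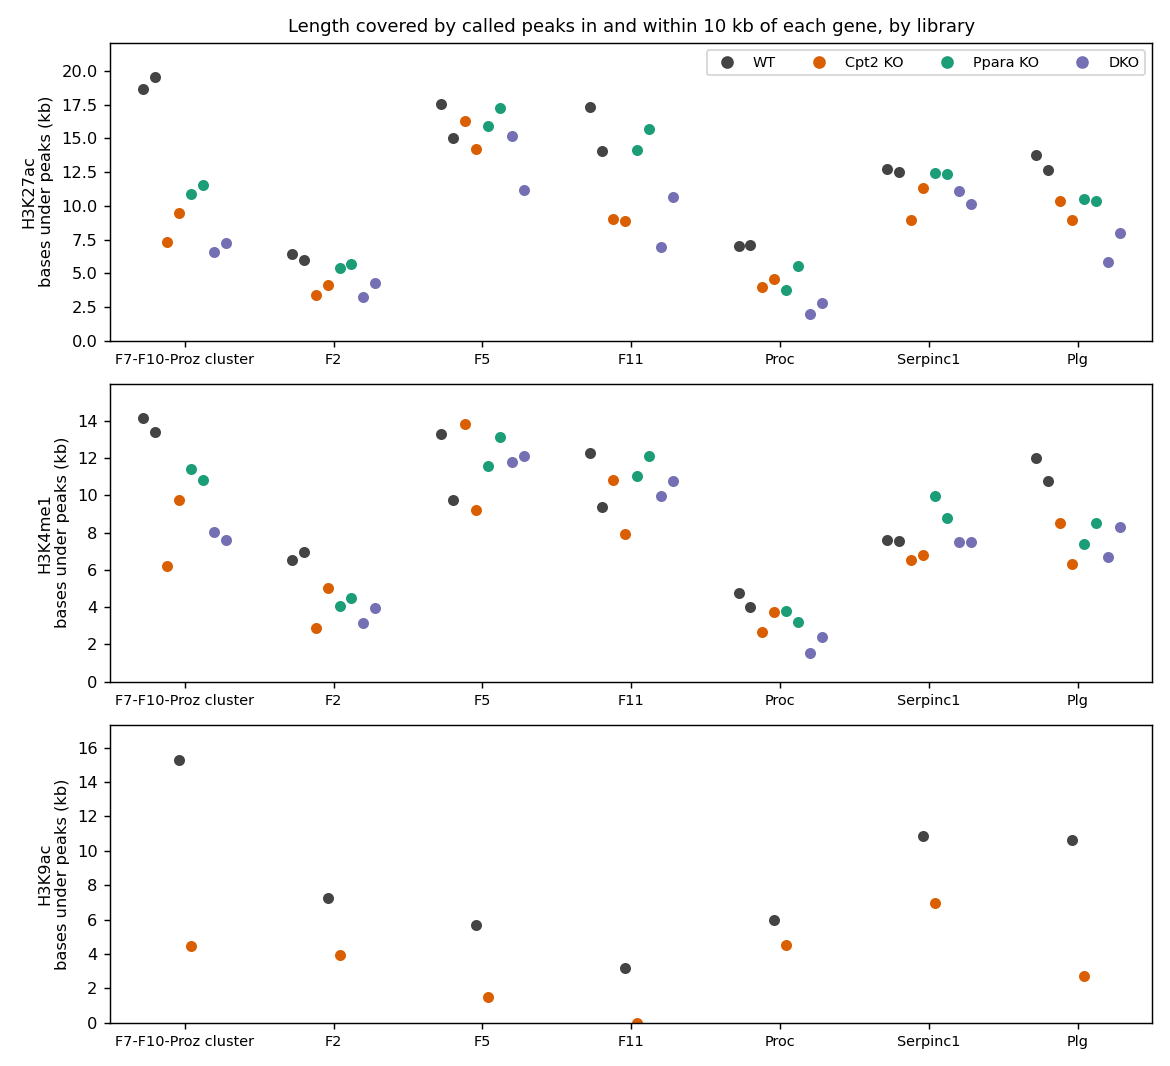
Length covered by called peaks (kb) in and within 10 kb of each gene, with the F7, F10 and Proz genes as 1 locus; each point is a library, coloured by genotype, and the 3 panels are the 3 marks. In H3K27ac the WT points are highest at all loci but F5 and F11, and in H3K9ac the WT point lies above the Cpt2 KO point at all 7 loci.

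The H3K9ac pair has 1 liver on each side and no replicate check. Of the 67 intervals near the clotting genes, 50 were called in the WT liver and not in the Cpt2 KO liver, none in the Cpt2 KO liver and not in WT, and 17 in both. Over all 46568 intervals the first kind made up 20.8% and the second 23.9%. The libraries covered equal lengths of the genome, 37.5 Mb in WT and 37.4 Mb in Cpt2 KO. At the clotting genes they covered 58.9 and 24.1 kb.

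Other genes of the pathway were described through their strongest interval. Of 16 other liver-made clotting and fibrinolysis genes, all 16 had a strongest H3K27ac interval called in all libraries, and its median log2 difference was 0.05 for Cpt2 loss and 0.11 for Ppara loss. 3 were lower without Cpt2 in limma (background 7.38%). Fgg, the fibrinogen gamma chain, fell by 0.95 on the log2 scale (SE 0.17, adjusted p 0.0076), from 22.1 and 19.8 in WT to 13.2 and 13.6 in Cpt2 KO and 8.65 and 9.63 in DKO livers. Klkb1 was called through the interval it shares with F11. Kng1, the kininogen that carries prekallikrein, was called at -1.10 ± 0.33 (limma adjusted p 0.045), but its Cpt2 KO livers were at 23.0 and 4.78, and the call was lost in 11 of 15 alternative fits, among them all 7 that left out a library other than Cpt2 KO replicate 1. F12, which starts the contact pathway, was higher without Ppara, as were 3.19% of all intervals, by 0.73 ± 0.15 (limma adjusted p 0.012), a call lost without Ppara KO replicate 1. Its folds were 9.12 and 13.9 for WT, 18.0 and 20 for Cpt2 KO, 23.8 and 22.1 for Ppara KO and 24.3 and 29.3 for DKO.

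In Cpt2 KO against WT 2 of the 16 partners were lower, Fgg and Klkb1 (background 7.69%), and 2 were higher, F9 and Cpb2 (background 5.82%). The partners higher in a single knockout are named here after their values were seen, and their calls were not followed through the alternative fits. F9, the vitamin K-dependent factor IX, rose by 1.09 ± 0.27 in Cpt2 KO livers (limma adjusted p 0.020), from 7.0 and 7.5 to 19.0 and 17.0. Cpb2, which slows fibrinolysis, rose by 0.79 ± 0.24 in the same comparison (limma adjusted p 0.044). In Ppara KO against WT 2 of the 16 were higher (background 2.83%) and none lower. F12 rose by 1.04 ± 0.21 (limma adjusted p 0.018) and F13b, a subunit of the fibrin-linking factor XIII, by 1.01 ± 0.27 (limma adjusted p 0.041). In DKO against WT F9 and F12 were higher, as were 1576 of all 18281 intervals, and Fgg was lower (background 11.5%). These DKO calls were likewise not followed through the alternative fits.

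Of the 8 genes of the vitamin K cycle and of factor secretion, 1 was higher for each loss (background 3.19% for Ppara and 4.9% for Cpt2) and none lower over both genotypes of a loss. Vkorc1l1, a vitamin K epoxide reductase, was higher without Ppara by 0.67 ± 0.18 (limma adjusted p 0.040), and Nqo1, a quinone reductase, higher without Cpt2 by 0.61 ± 0.18 (limma adjusted p 0.039). The carboxylase Ggcx, which modifies all 5 vitamin K-dependent members, had folds of 20.2 to 37.2 and no call. Against WT alone, 2 of the 8 were lower in Cpt2 KO (background 7.69%) and in DKO livers (11.5%). Lman1, a cargo receptor for secreted factors, fell by 0.75 and 0.85 on the log2 scale (SE 0.23 each, limma adjusted p 0.045 and 0.020). The protease Pcsk6 fell by 0.85 and 0.93 (SE 0.24 each, limma adjusted p 0.031 and 0.017). Others of the 8 were higher than WT. Nqo1 rose by 1.03 ± 0.25 in Cpt2 KO livers (limma adjusted p 0.020, background 5.82%). Vkorc1l1 rose by 0.94 ± 0.25 in Ppara KO livers (limma adjusted p 0.044, background 2.83%). In DKO livers Vkorc1l1 and Nqo1 rose by 1.01 and 0.98 (SE 0.25 each, limma adjusted p 0.016 and 0.017). Of 12 vessel wall and plasminogen activation genes, 7 had an interval called throughout. Among them F3, tissue factor, was lower without Ppara, as were 4.15% of all intervals, at -1.11 ± 0.28 (limma adjusted p 0.030). Plaur, the urokinase receptor, was higher without Cpt2, as were 4.9% of all intervals, by 0.69 ± 0.18 (limma adjusted p 0.027). The calls of Vkorc1l1, Nqo1, F3 and Plaur for Ppara or Cpt2 loss were each lost when any of several single libraries was left out. WT replicate 2 was among them for all 4. In DKO against WT, F3 was lower (background 11.5%), and F8 and Plaur were higher, as were 1576 of all 18281 intervals. The calls of the genes in this paragraph against WT alone were not followed through the alternative fits. H3K4me1 gave no call for any of these genes in limma.

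The H3K27ac profile of the cluster, taken as the mean centred log2 fold of its 2 strongest intervals, was 0.86 and 0.82 for WT, 0.25 and 0.61 for Cpt2 KO, -0.04 and 0.44 for Ppara KO and -0.41 and -0.06 for DKO. WT stood above the rest and DKO was lowest. Among 11220 genes outside the lists above, the 3 with the most similar profile over the 8 libraries were Slc40a1 (Pearson r 0.969), the iron exporter, Il15ra (0.966), a cytokine receptor chain, and Cebpa (0.964), a liver transcription factor. The median r over all these genes was 0.08 and the 99th percentile 0.888. Cebpa had folds of 33.8 and 41.5 for WT, 25.3 and 28.5 for Cpt2 KO, 17.6 and 25.5 for Ppara KO and 17.4 and 22.4 for DKO. The 8 points share livers, input and peak calling, so these values describe and are not tested.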

How the data were processed

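Peak lists of 8 H3K27ac and 8 H3K4me1 libraries and interval tables of 3 marks were used. Reads were aligned with BWA and peaks called with MACS2 2.1.0 on mm10, per the submitters' processing notes, separately for each library. The fold enrichment of a peak over the pooled input is a ratio deposited by the authors. The −log10 q of each peak, also deposited by the authors, served as a filter in an alternative (at least 10). The other columns used hold positions, per the file headers. In 1 H3K27ac library (Ppara KO, replicate 2) the names of the peaks hold a build word other than mm10, and mm10 positions were assumed. The caller of the H3K9ac intervals is not given in the sources used here. The 2 pooled inputs were not analysed here on their own.

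Here, positions were made 1-based, peaks were joined to intervals by at least 1 base, and genes came from RefSeq tables of GRCm38.p6, whose promoter table matched 7 of the 9 genes. The tables give no exons, so an interval is given as inside or outside a gene. log2 folds of the deposited ratios were centred per library and fitted with limma 3.58.1 in R 4.3.3 (eBayes with trend, 4 genotype means, Benjamini-Hochberg over all intervals called in all 8 libraries, threshold 0.05). The fit was tested on simulated data with 200 intervals changed in Ppara-null livers. Changes of 1 on the log2 scale were recovered in 57% of cases for H3K27ac and 37% for H3K4me1. Changes of 2 were recovered in 98% and 87%. A missing H3K4me1 call is therefore no sign that a change of that smaller size is absent. Positions and counts were made with Python 3.11.15 and pandas 2.3.3. The depth in reads is unknown, so no interval for counting error is given. Members and lists were chosen with earlier results of these data known. Every member was described; a gene of the lists was named when its strongest interval passed the threshold for Ppara or Cpt2 loss; 1 such gene is not reported here. With 2 livers per genotype, a p-value sets a difference against the spread between these samples. That spread is pooled over the 4 genotypes and moderated by limma across intervals. Alternatives were no centring, quantile normalization, smallest peak width as covariate, filling in of uncalled libraries, a stricter q, a larger overlap, other gene windows, a replicate block and leaving out each library.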

Additional observations from a re-analysis of the deposited data

How the results depend on the processing

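No called difference of a clotting gene interval changed sign in any alternative, nor did that of a listed gene called for Ppara or Cpt2 loss. The other named differences were not followed through the alternatives. Of the calls for H3K27ac, that for Ppara loss (1 interval) went to 0 without centring, with quantile normalization and with smallest peak width as a covariate, and ranged from 0 to 1 when a library was left out. In the 4 fits with a library left out that gave 1 call, the interval called was not the Proc one, and without WT replicate 1 it was a higher one. The 5 for Cpt2 loss became 3 without centring and 0 with width, and 3 to 5 when a library was left out. For Cpt2 KO against WT the 3 became 0 with width and 1 to 3 when a library was left out. For Ppara KO against WT the 1 became 0 without centring, with width, with uncalled libraries filled in and with intervals inside the gene body, and 0 to 1 when a library was left out. For DKO against WT the 5 became 2 without centring, 0 with width, 3 inside the gene body and 2 to 5 when a library was left out. Width and Cpt2 state nearly coincide, so that fit has little left to estimate Cpt2 from. When a library was left out its genotype had 1 liver, assumed to vary like the others. H3K4me1 stayed at 0 calls in all of these fits. The H3K27ac intervals called in both WT livers and in none of the other 6 fell from 7 to 3 at a −log10 q of at least 10 and were 12 without either WT liver; the H3K4me1 ones rose from 11 to 22 without WT replicate 2. The intervals of H3K4me1 called by genotype were 25, and 27 to 39 when a library was left out, the highest without WT replicate 2.

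With the replicate number as a block, the number of calls stayed at 5 for Cpt2 loss and 5 for DKO against WT, and no other count changed. The numbers do not pair the livers: the deviations of same-numbered livers of 2 genotypes correlated at -0.489 to 0.172. The value of -0.489 was of H3K4me1 in Cpt2 KO and Ppara KO livers. There replicate 1 had the larger smallest peak width in Cpt2 KO and the lesser in Ppara KO, and the part of width in that value was not tested. Depth in reads is unknown, which limits what a missing call shows.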

Other observations

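2 H3K27ac intervals were called in both livers of a single knockout and in none of the other 6 libraries. The F5 one is given with that gene, and the other lay before the F2 start site (chr2:91638244-91638985), with H3K27ac folds of 4.49 and 5.43 in the Ppara KO livers (0.441% of all intervals had that pattern). H3K4me1 close by (chr2:91638306-91639434) was called in both WT livers (8.33 and 6.55), both Ppara KO livers (6.13 and 7.80) and both DKO livers (5.70 and 7.53), and in neither Cpt2 KO liver. Beyond F5, at chr1:164224896-164225217, H3K27ac was called in WT replicate 2 (10.1) and both Cpt2 KO livers (10.2 and 8.29) and in none of the 4 Ppara-null livers. H3K4me1 near it, at chr1:164222921-164223511, was called in both WT livers (5.73 and 5.25) and both Cpt2 KO livers (7.32 and 5.0) and likewise in none of the Ppara-null livers. Between F11 and Klkb1, H3K27ac at chr8:45263678-45269259 had 12.1 and 11.8 for WT, 18.1 and 12.6 for Cpt2 KO, 10.6 and 18.4 for Ppara KO and 9.88 and 13.8 for DKO, and passed no limma test.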
